A study of Homo sapiens with 16 samples.

Results

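The 10 genes described here, AGR2, AGR3, CEACAM1, CEACAM5, CEACAM6, TFF1, TFF2, TFF3, LGALS4 and TSPAN8, are markers of the glandular, gastrointestinal-like programme of classical pancreatic cancer. They were taken by symbol from the gene tables of BxPC3 and PANC-1, both lines of pancreatic ductal adenocarcinoma, and all 10 were found among the 58735 genes listed. Libraries of 4 kinds were compared, with 4 libraries of each: BxPC3 cells treated with gemcitabine and untreated BxPC3 cells, and PANC-1 cells treated with gemcitabine and untreated PANC-1 cells. Gemcitabine is a deoxycytidine analogue that stalls DNA synthesis. Both lines are established human epithelial tumour lines, and each is a single genome, so a difference between them is a difference between 1 line and 1 line. The labels give neither the dose nor the time of treatment. Whether the replicates are separate cultures is not stated. The p-values therefore cover the spread among the 4 libraries of a group, and that spread may be technical. Levels were fragments per kilobase of exon, scaled to library size (FPKM), from poly-A RNA, given as mean ± SD of 4 libraries unless stated.

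Classical tumours keep features of gut and pancreatic duct epithelium, and are set against basal-like tumours, which carry squamous and keratin genes. The markers fall into 3 roles. AGR2 and AGR3 are protein disulfide isomerases of the endoplasmic reticulum, and mouse intestine without Agr2 makes little mucin. The trefoil factors TFF1, TFF2 and TFF3 are small peptides secreted with mucus that help injured epithelium to close. The remaining members work at the cell surface. CEACAM5, the carcinoembryonic antigen used as a serum tumour marker, and CEACAM6 are adhesion molecules held by a lipid anchor, whereas CEACAM1 spans the membrane and has a cytoplasmic tail. LGALS4 is a galectin of the gut that binds galactose-bearing glycans, and TSPAN8 is a tetraspanin, a membrane protein that organises other surface proteins.

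CEACAM5, CEACAM6 and CEACAM1 are shown with the 250 bases before their RefSeq transcription starts (GRCh38.p14), because these relatives differed in their response below. The windows lie at chr19:41708376-41708625 on the plus strand for CEACAM5, chr19:41755280-41755529 on the plus strand for CEACAM6 and chr19:42528482-42528731 on the minus strand for CEACAM1. Capitals mark matches to motifs searched on both strands: the E-box CACGTG and the GC box GGGCGG, which do not overlap each other here. The forkhead core TGTTTAC and the GATA core AGATAA were searched too.
CEACAM5: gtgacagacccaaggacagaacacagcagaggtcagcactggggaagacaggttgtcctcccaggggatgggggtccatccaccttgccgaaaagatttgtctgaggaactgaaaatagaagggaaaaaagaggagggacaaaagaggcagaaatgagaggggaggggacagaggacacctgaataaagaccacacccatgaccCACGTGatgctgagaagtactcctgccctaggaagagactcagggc
CEACAM6: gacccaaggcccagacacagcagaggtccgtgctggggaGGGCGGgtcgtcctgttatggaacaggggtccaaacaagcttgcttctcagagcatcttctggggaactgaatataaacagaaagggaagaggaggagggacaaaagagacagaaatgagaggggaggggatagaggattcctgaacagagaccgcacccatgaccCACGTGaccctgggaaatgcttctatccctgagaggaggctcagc
CEACAM1: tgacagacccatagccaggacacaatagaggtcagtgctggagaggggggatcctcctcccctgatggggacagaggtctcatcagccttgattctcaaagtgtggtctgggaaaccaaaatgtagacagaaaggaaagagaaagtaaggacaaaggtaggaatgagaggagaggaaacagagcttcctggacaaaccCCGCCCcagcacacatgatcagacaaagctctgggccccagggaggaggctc
Aligned end to end, the CEACAM5 and CEACAM6 windows were identical at 74.6% of aligned positions, gaps counted. CEACAM5 and CEACAM1 were identical at 65.9%, and CEACAM6 and CEACAM1 at 68.7%. With the window of AGR2, a gene of another family, the same alignment gave 48.7% for CEACAM5, 47% for CEACAM6 and 46.4% for CEACAM1. The E-box began 46 bases before the start of CEACAM5 and 45 bases before that of CEACAM6, and the CEACAM1 window held none. The GC box of CEACAM1 lies on the opposite strand. E-boxes were present in 6.34% of 35116 windows of the same length, GC boxes in 42.6%, the forkhead core in 2.98% and the GATA core in 9.17%. None of the 3 windows held either core. Entries were found for 7 of the 10 members. A match is a description of these letters and not a binding site.

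The libraries held 22152034 to 37777222 reads in listed genes, and 3 reads equalled 0.0803 to 0.138 FPKM for a gene with 1 kb of exon. SMAD4, which BxPC3 is known to lack, had 0 reads in all 8 BxPC3 libraries, and in PANC-1 it averaged 3.68 ± 0.437 FPKM with gemcitabine and 3.84 ± 0.193 without. EPCAM, an epithelial surface marker, averaged 66.4 FPKM in treated and 53.1 FPKM in untreated BxPC3, and 17.1 FPKM in treated and 17.5 FPKM in untreated PANC-1. CDH1, the epithelial cadherin, was near absent from PANC-1 at 0.551 FPKM with gemcitabine and 0.921 FPKM without. In BxPC3, CDH1 averaged 91.0 FPKM in treated and 82.5 FPKM in untreated cells, called higher but not with no filter (adjusted p = 0.0586). The epithelial keratins were present in both lines. KRT19 moved in opposite directions, at 1327 FPKM in treated and 1841 FPKM in untreated BxPC3 (called lower), and at 227 FPKM in treated and 93.4 FPKM in untreated PANC-1 (called higher). KRT8 was called higher in both lines, at 360 FPKM in treated and 290.1 FPKM in untreated BxPC3 and at 162 FPKM in treated and 115 FPKM in untreated PANC-1. KRT18 was called higher in both lines too, at 282 FPKM in treated and 247 FPKM in untreated BxPC3 and at 199 FPKM in treated and 128 FPKM in untreated PANC-1. Of these 5 epithelial markers, 4 were thus called higher in BxPC3 and 1 lower. Summed acinar markers were 13.8 to 15.2 FPKM in treated and 1.80 to 2.42 FPKM in untreated BxPC3 libraries, nearly all of it PRSS1, and the other 5 of the 6 markers stayed under 1 FPKM in all 16 libraries. Endothelial markers summed to 5.59 to 6.29 FPKM in treated and 1.38 to 1.61 FPKM in untreated BxPC3. CDH5 made up most of the treated sum at 5.76 FPKM, but not of the untreated one at 0.603 FPKM. Fibroblast markers summed to 3.84 to 4.21 FPKM in treated and 6.44 to 7.18 FPKM in untreated BxPC3, with COL3A1 called lower and COL1A1 called higher. In PANC-1 the fibroblast sums were 8.19 to 11.7 FPKM in treated and 11.9 to 12.9 FPKM in untreated libraries. The part of these genes in the results was not tested. In PANC-1, gemcitabine replicate 1 stood apart on the second principal component, which held 20.4% of the variance. In bulk RNA, fewer cells of a kind and less RNA per cell cannot be told apart.

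Untreated BxPC3 held far more RNA of TFF1, TFF2 and the 3 CEACAM genes than untreated PANC-1, while AGR2 was abundant in both lines. The tables were normalised separately, so each library was rescaled to the same total (TPM) for this comparison. CEACAM6 averaged 1582 ± 60.5 TPM in BxPC3 and 0.724 ± 0.230 TPM in PANC-1. CEACAM5 averaged 822 ± 43.2 TPM in BxPC3 and had 0 reads in the 4 PANC-1 libraries. By share of reads, not TPM, this was at least 25763-fold higher, against a floor of 3 reads over the PANC-1 libraries. CEACAM1 averaged 61.1 ± 5.15 TPM in BxPC3 and 0.620 ± 0.0771 TPM in PANC-1. These cell-surface genes thus ranged from abundant to barely counted between the lines. TFF1 averaged 63.9 ± 7.55 TPM in BxPC3 and 0.519 ± 0.275 TPM in PANC-1, and TFF2 58.3 ± 4.11 and 0.538 ± 0.370 TPM in the same order. The gap was small for 4 members. AGR2 averaged 452 ± 21.3 TPM in BxPC3 and 153 ± 8.53 TPM in PANC-1, 2.96-fold. TFF3 averaged 11.5 ± 1.32 TPM in BxPC3 and 7.58 ± 0.354 TPM in PANC-1, 1.52-fold. LGALS4 averaged 1.71 ± 0.337 TPM in BxPC3 and 0.687 ± 0.155 TPM in PANC-1, and TSPAN8 3.21 ± 0.688 TPM in BxPC3 and 1.94 ± 0.273 TPM in PANC-1, the only member whose libraries overlapped between the lines. AGR3 had 28 reads over 4 BxPC3 libraries and 0 over 4 PANC-1 libraries.

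All 9 members that passed a filter of 1 TPM in at least 4 libraries were called higher in BxPC3 (limma, Benjamini-Hochberg adjusted p under 0.05). This is read against 28.8% of all 16968 tested genes that were called higher. A gene expressed in a single line could pass the filter only through that line. CEACAM1, CEACAM5, CEACAM6, TFF1, TFF2 and LGALS4 averaged under 1 TPM in untreated PANC-1 and passed only through BxPC3. For these only a higher level in BxPC3 could be tested, which shapes both the count and the median. The median log2 difference of the 9 was 5.26, against -0.49 over all tested genes. Of 23 tested genes of the basal-like subtype, 22 were called higher in BxPC3 and 1 lower, with a median of 5.89. A higher level in BxPC3 was therefore not particular to the classical markers. The lines differed at most genes, with 87.3% called in either direction and 58.6% called lower in BxPC3. Over all 10 members the BxPC3 libraries lay above the PANC-1 libraries for 9 without overlap, against 27.2% of tested genes, while 56.4% of tested genes lay below.

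Within untreated BxPC3 the members ran from rank 59 to rank 12646 of 19951 protein-coding genes. Per length, CEACAM6 stood highest at 467 ± 4.26 FPKM, followed by CEACAM5 at 242 ± 4.62 FPKM and AGR2 at 134 ± 11.8 FPKM. TFF1, CEACAM1 and TFF2 formed a second step at 18.9 ± 3.01, 18.02 ± 0.940 and 17.2 ± 1.67 FPKM, and their libraries overlapped, so their order was not resolved. TFF3 followed at 3.40 ± 0.467 FPKM and TSPAN8 at 0.951 ± 0.233 FPKM. LGALS4 at 0.505 ± 0.101 FPKM and AGR3 at 0.181 ± 0.0873 FPKM were lowest. In untreated PANC-1, AGR2 at 37.5 ± 2.02 FPKM was rank 1124, and no other member exceeded the 1.86 ± 0.0850 FPKM of TFF3.

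**Figure D1:**
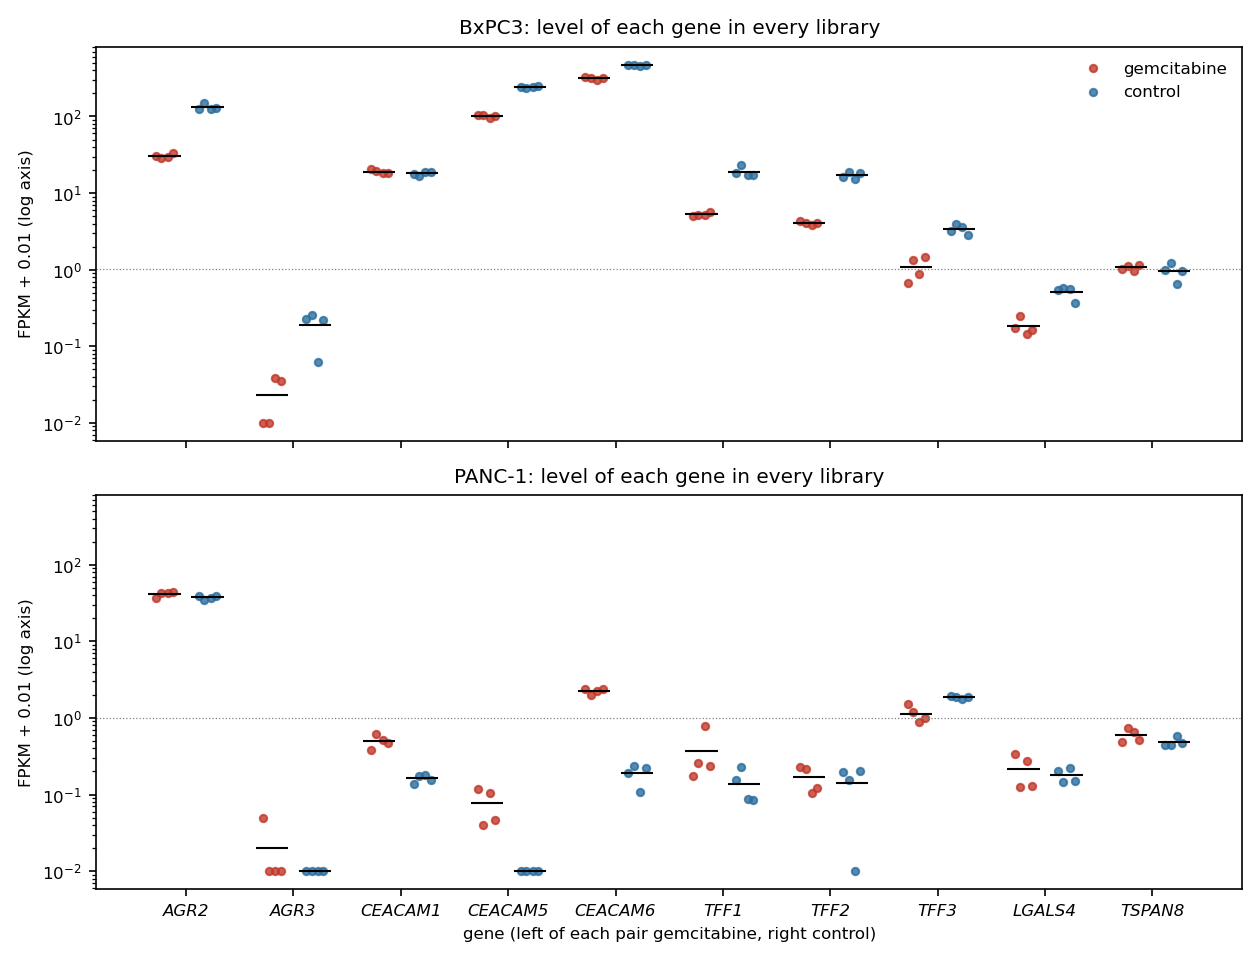
Levels of the 10 genes in each library, in FPKM on a log axis after adding a small offset so that 0 can be drawn, with gemcitabine left of control in each line; each point is 1 library, black lines are means and the dotted line is 1 FPKM. AGR2 is high in both lines, whereas CEACAM5 and CEACAM6 average 242 and 467 FPKM in untreated BxPC3 and at 0 or under 1 FPKM in untreated PANC-1.

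In BxPC3, gemcitabine was accompanied by less RNA of the secretory members and of both lipid-anchored CEACAMs, while CEACAM1 and TSPAN8 were not called. Of the 8 members that could be tested, 6 fell and none rose. This is read against 36.1% of the 12215 tested genes that fell and 37.3% that rose, 73.4% in all, so most genes moved in this line. Over all 10 members, the 4 treated libraries lay below the 4 untreated ones for 8 and above them for none, against 33.2% and 34.3% of tested genes. The median log2 change of the 8 tested members was -1.17, against 0.00 over all tested genes. The members were chosen with earlier results of these data known. Comparisons of the list with all genes, here and elsewhere, are therefore descriptions and not independent tests. Treated libraries held 0.153% ± 0.00609 of their reads in the 10 genes, and untreated ones 0.271% ± 0.00354.

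Of the disulfide isomerases, AGR2 (ENSG00000106541, chr7:16791811-16833433, minus strand) had 30.5, 29.05, 29.6 and 33.6 FPKM in treated libraries, against 127, 151, 127 and 130 FPKM in untreated ones. Every treated library was far below every untreated one. The mean was 30.7 ± 2.03 FPKM with gemcitabine and 134 ± 11.8 FPKM without, 4.36-fold lower, a log2 change of -2.09 ± 0.07 (SE; adjusted p = 2.91e-09). Its rank among protein-coding genes was 1585 with gemcitabine and 272 without. AGR3 (ENSG00000173467, chr7:16859405-16881987, minus strand), its neighbour, had 2 reads in the 4 treated libraries and 28 in the untreated ones. It was too low for the main test. The read rate was 13.5 times lower with treatment, with an exact 95% interval of 3.40 to 117 that covers counting error only. With no filter its adjusted p was 0.0173.

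The trefoil factors lie side by side on chromosome 21, minus strand, and all 3 fell. TFF1 (ENSG00000160182, chr21:42362282-42366594) had 5.05, 5.16, 5.18 and 5.62 FPKM in treated libraries, against 18.2, 23.4, 17.2 and 17.1 FPKM in untreated ones. TFF2 (ENSG00000160181, chr21:42346357-42351128) had 4.35, 4.11, 3.88 and 4.08 FPKM in treated libraries, against 16.4, 18.9, 15.3 and 18.3 FPKM in untreated ones. The treated libraries of both were tightly grouped and far below the untreated ones, where replicate 2 was highest. The log2 change was -1.66 ± 0.09 for TFF1 (adjusted p = 9.51e-08) and -1.83 ± 0.06 for TFF2 (adjusted p = 5.39e-09). TFF3 (ENSG00000160180, chr21:42311667-42315651) had 0.655, 1.31, 0.871 and 1.47 FPKM in treated libraries, against 3.21, 3.95, 3.57 and 2.87 FPKM in untreated ones. Its groups did not overlap either, and its log2 change was -1.09 ± 0.13 (adjusted p = 2.81e-05). The ratio of TFF1 to TFF2 was 1.28 ± 0.0952 in treated and 1.10 ± 0.128 in untreated libraries, and its groups overlapped.

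The 3 CEACAM members differed from each other. CEACAM5 (ENSG00000105388, chr19:41708585-41729798, plus strand) had 104, 103, 96.5 and 102 FPKM in treated libraries, against 241, 237, 244 and 248 FPKM in untreated ones. CEACAM6 (ENSG00000086548, chr19:41750977-41772208, plus strand) had 324, 314, 302 and 313 FPKM in treated libraries, against 468, 466, 461 and 471 FPKM in untreated ones. CEACAM1 (ENSG00000079385, chr19:42507304-42561234, minus strand) had 20.4, 19.5, 18.1 and 18.1 FPKM in treated libraries, against 17.7, 16.8, 18.8 and 18.7 FPKM in untreated ones. Thus the groups were wide apart for CEACAM5, apart by less for CEACAM6, and overlapping for CEACAM1. CEACAM5 changed by -1.25 ± 0.04 on the log2 scale (adjusted p = 2.88e-09) and CEACAM6 by -0.57 ± 0.04 (adjusted p = 5.94e-07). The CEACAM1 change was 0.07 ± 0.05 (adjusted p = 0.216), with a 95% interval of -0.03 to 0.18. The ratio of CEACAM6 to CEACAM5 was 3.08 ± 0.0379 in treated and 1.93 ± 0.0364 in untreated libraries, without overlap, and that of CEACAM6 to CEACAM1 was 16.5 ± 0.671 in treated and 25.95 ± 1.42 in untreated ones.

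These CEACAM values carry a limit of sequence. Of the 50-base stretches of their annotated transcripts, 16.3% in CEACAM5, 6.99% in CEACAM6 and 3.29% in CEACAM1 also occur in another gene. For CEACAM5 and CEACAM6 much of this is a readthrough transcript of the pair that had 1 read in treated and 3 reads in untreated BxPC3 libraries, and for CEACAM1 the genes sharing most are CEACAM3, CEACAM6 and CEACAM8. How such reads were assigned is not given in the sources used here. LIPE-AS1, which lies opposite the whole of CEACAM1, had 300 reads in treated and 388 in untreated BxPC3 libraries, and reads of overlapping opposite genes cannot be told apart without strand.

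LGALS4 (ENSG00000171747, chr19:38801671-38813364, minus strand) had 0.162, 0.236, 0.137 and 0.154 FPKM in treated libraries, against 0.540, 0.567, 0.557 and 0.354 FPKM in untreated ones. These are 61 and 175 reads in all, below the filter, and the groups did not overlap. With no filter its adjusted p was 0.00187. TSPAN8 (ENSG00000127324, chr12:71125085-71441898, minus strand) had 1.01, 1.12, 0.964 and 1.16 FPKM in treated libraries, against 0.979, 1.21, 0.646 and 0.967 FPKM in untreated ones. Its groups overlapped, and the log2 change was 0.09 ± 0.08 (adjusted p = 0.373). Untreated replicate 2 was the highest of its group for 7 of the 10 members. On both principal components it lay farthest from the median of all BxPC3 libraries, treated and untreated together. That distance is not one from the other untreated libraries alone. Without it AGR2 changed by -2.03 and TFF1 by -1.56.

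**Figure D2:**
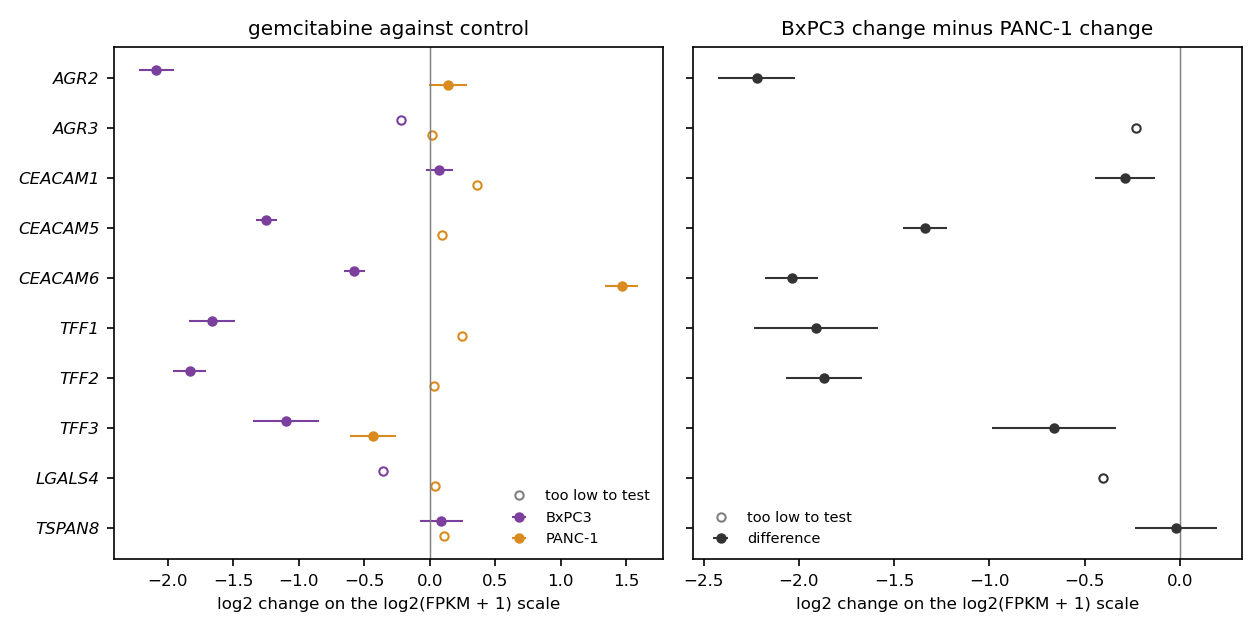
Log2 change with gemcitabine on the log2(FPKM + 1) scale for each member, in BxPC3 and PANC-1 (left panel), and the BxPC3 change minus the PANC-1 change (right panel); bars are 95% intervals, and open points are members too low to test, with the value of a fit without a filter. AGR2, TFF1 and TFF2 sit near -2 in BxPC3, and CEACAM6 sits on opposite sides of 0 in the 2 lines.

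In PANC-1 the members did not move as a group. CEACAM6, barely present in untreated cells, rose with gemcitabine, TFF3 fell, and AGR2 was not called. Only 3 members passed the filter, of which 1 rose and 1 fell. This is read against 20.7% of 12508 tested genes that rose and 24% that fell, 44.8% in all. Over all 10 members, treated libraries lay above untreated ones for 3 and below for 1, against 21.3% and 24.5% of tested genes. The 3 that lay above were the 3 CEACAM genes. The median log2 change of the 3 tested members was 0.14, against -0.02 over all tested genes.

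CEACAM6 had 2.40, 1.98, 2.24 and 2.39 FPKM in treated PANC-1 libraries, against 0.180, 0.223, 0.0975 and 0.213 FPKM in untreated ones. Every treated library was well above every untreated one, from 745 and 54 reads in all. The means were 2.25 ± 0.196 and 0.178 ± 0.0569 FPKM, 12.6-fold higher with treatment, and the log2(FPKM + 1) change was 1.46 ± 0.07 (adjusted p = 5.29e-07). On recovered reads, where low levels are not compressed, the change was 3.65. CEACAM6 could be tested only because the treated libraries passed the filter.

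CEACAM1 and CEACAM5 stayed below 1 FPKM in PANC-1. CEACAM1 had 0.367, 0.600, 0.504 and 0.467 FPKM in treated libraries, against 0.128, 0.167, 0.169 and 0.147 FPKM in untreated ones. CEACAM5 had 8, 3, 8 and 4 reads in treated libraries and 0 in each untreated one, at least 6.86-fold higher against 3 reads over the untreated libraries. Both groups of each gene were apart, at levels far below those of BxPC3. With no filter the adjusted p was 0.00329 for CEACAM1 and 0.0361 for CEACAM5. On recovered reads, over genes with at least 10 reads, the adjusted p was 1.10e-04 and 0.00289. Some CEACAM5 transcript sequence is shared with CEACAM6, as given above.

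**Figure D3:**
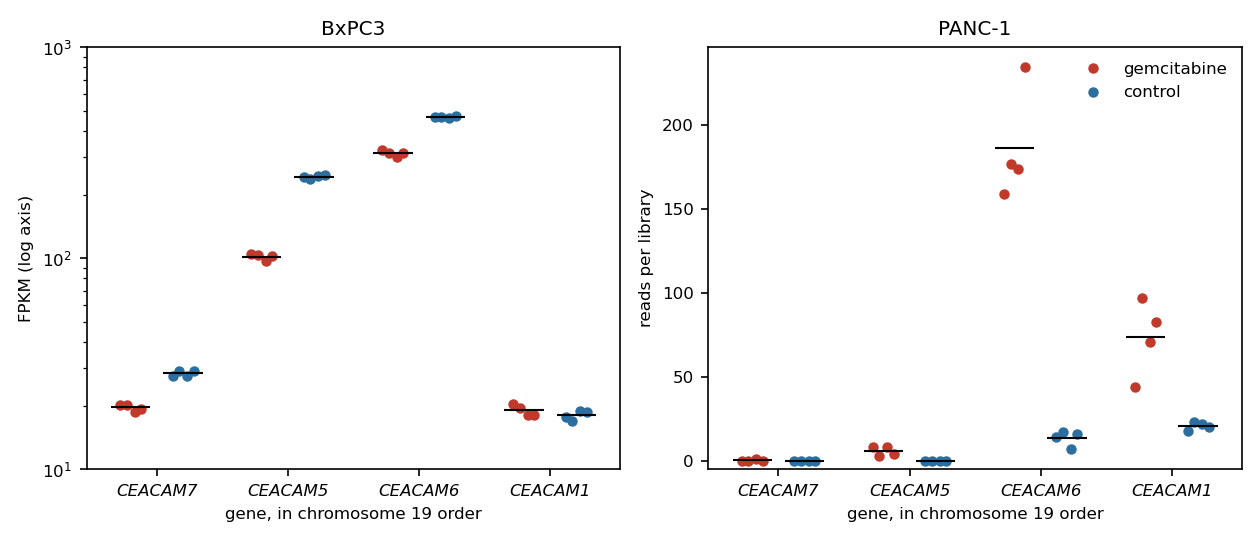
CEACAM7, CEACAM5, CEACAM6 and CEACAM1 in chromosome 19 order, as FPKM on a log axis in BxPC3 (left panel) and as reads per library from 0 in PANC-1 (right panel), gemcitabine left of control; points are libraries and lines are means. In BxPC3 CEACAM5 shows the widest gap and CEACAM1 none, and in PANC-1 the 4 treated CEACAM6 libraries hold 159 to 235 reads, against 7 to 17 in untreated ones.

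AGR2 had 36.4, 42.6, 42.7 and 43.9 FPKM in treated PANC-1 libraries, against 39.4, 35.0, 36.7 and 39.0 FPKM in untreated ones. Treated replicate 1 alone lay among the untreated libraries. The log2 change was 0.14 ± 0.07 (adjusted p = 0.169), with a 95% interval of -0.01 to 0.28. Without treated replicate 1, the library that stood apart, the change was 0.20 (adjusted p = 0.00180), so whether AGR2 was called higher rested on that library. AGR3 had 1 read in treated and 0 in untreated libraries, too few for any statement.

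Among the trefoil factors, TFF3 had 1.497, 1.17, 0.873 and 0.984 FPKM in treated PANC-1 libraries, against 1.95, 1.88, 1.75 and 1.88 FPKM in untreated ones. All 4 treated libraries lay below the untreated ones, and the log2 change was -0.43 ± 0.09 (adjusted p = 0.00390). TFF1 had 21 reads in treated and 7 in untreated libraries, and TFF2 had 14 and 11, both with overlapping groups. LGALS4 had 56 reads in treated and 44 in untreated libraries, and TSPAN8 had 163 and 118, again with overlap. No change of these 4 genes was detectable at this depth.

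The effect of gemcitabine was lower in BxPC3 than in PANC-1 for 7 of the 8 members that could be tested over all 16 libraries. The same was called for 25.2% of 14134 tested genes, and the opposite for 26.6%, together 51.8%. Both effects in each difference are the ones given above, so the difference is no independent result of their directions. CEACAM1, CEACAM5, TFF1, TFF2 and TSPAN8 were under 1 FPKM in PANC-1 and could be tested only through BxPC3. Their PANC-1 change is compressed towards 0 on the log2(FPKM + 1) scale. For CEACAM5, TFF1 and TFF2 the difference mainly restates the BxPC3 change. CEACAM1 was not called in BxPC3, and its difference mainly restates the PANC-1 rise, 0.36 log2 units with no filter. The difference was -2.22 ± 0.10 for AGR2 (adjusted p = 5.19e-11) and -2.04 ± 0.07 for CEACAM6 (adjusted p = 2.06e-12), log2 units. It was -1.34 ± 0.06 for CEACAM5 (adjusted p = 2.74e-11), -1.91 ± 0.17 for TFF1 (adjusted p = 9.61e-08) and -1.87 ± 0.10 for TFF2 (adjusted p = 3.09e-10). TFF3 fell in both lines and fell more in BxPC3, by a difference of -0.66 ± 0.17 (adjusted p = 0.00338). CEACAM1 differed by -0.29 ± 0.08 (adjusted p = 0.00645), a small value because PANC-1 levels were under 1 FPKM. On recovered reads the CEACAM1 difference was -1.58. TSPAN8 did not pass the threshold at -0.02 ± 0.11 (adjusted p = 0.896), with a 95% interval of -0.23 to 0.19.

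The wider lists place the members among related genes. Their BxPC3 counts are read against the 36.1% of all tested genes that fell and the 37.3% that rose there. Of 30 other classical-subtype genes, 16 were tested in BxPC3, of which 10 fell and 5 rose, with a median log2 change of -0.40. ST6GALNAC1, which adds sialic acid to mucin-type glycans, averaged 3.34 ± 0.195 FPKM in treated and 15.65 ± 0.171 FPKM in untreated BxPC3 (log2 change -1.94). ELF3, an epithelial ETS factor, averaged 13.3 ± 0.436 FPKM in treated and 30.2 ± 0.854 FPKM in untreated BxPC3 (log2 change -1.12). MUC13, a membrane mucin, moved the other way, at 4.34 ± 0.232 FPKM in treated and 1.05 ± 0.0478 FPKM in untreated BxPC3 (log2 change 1.38). Of 25 basal-like genes, 24 were tested, of which 14 rose and 7 fell, with a median of 0.32. Among them UCA1 passed the filter only through treated libraries and LEMD1 only through untreated ones. The keratin gene KRT6A averaged 491 ± 23.0 FPKM in treated and 116 ± 1.72 FPKM in untreated BxPC3, whereas SERPINB3 fell to 5.58 ± 0.480 FPKM in treated cells, against 17.3 ± 0.858 FPKM in untreated ones. In PANC-1, only 4 other classical genes were tested, of which 3 were called higher, among them CAPN8 at 1.24 ± 0.131 FPKM in treated and 0.0507 ± 0.0191 FPKM in untreated cells. All 7 basal-like genes tested in PANC-1 were called higher, but 3 of them (KRT15, DHRS9 and TNS4) passed the filter only through treated libraries, as CAPN8 did, so for these 4 genes only a higher level in treated cells could be tested. These counts are read against the 20.7% of all tested genes called higher in PANC-1.

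Transcription factors of gut and pancreatic lineage were mixed. Of 9 tested in BxPC3, 5 fell and 2 rose, and of 7 tested in PANC-1, 3 fell and 3 rose. HNF4G passed the filter in BxPC3 only through untreated libraries, and GATA6 in PANC-1 only through treated ones. For each, only a higher level in that group could be tested. Over all tested genes, 36.1% fell and 37.3% rose in BxPC3, and 24% fell and 20.7% rose in PANC-1. FOXA1 averaged 28.1 ± 1.26 FPKM in treated and 49.3 ± 2.35 FPKM in untreated BxPC3 (log2 change -0.79). KLF5 averaged 87.5 ± 4.66 FPKM in treated and 165 ± 8.21 FPKM in untreated BxPC3 and, in the opposite direction, 2.65 ± 0.215 FPKM in treated and 1.65 ± 0.198 FPKM in untreated PANC-1, a difference between lines of -1.37 ± 0.09 (adjusted p = 3.1e-09). CREB3L1, a factor anchored in the membrane of the endoplasmic reticulum, fell in both, to 5.06 ± 0.266 FPKM in treated BxPC3, against 18.7 ± 0.573 FPKM untreated, and to 2.40 ± 0.376 FPKM in treated PANC-1, against 11.2 ± 0.467 FPKM untreated. Of 13 lineage factors tested between the untreated lines, 8 were called higher and 4 lower in BxPC3. Over all genes tested there, 28.8% were called higher and 58.6% lower. In untreated cells, GATA6, a factor associated with the classical subtype, averaged 119 ± 6.23 TPM in BxPC3 and 3.66 ± 0.220 TPM in PANC-1. GATA5 went the other way, at 0.0693 ± 0.0389 TPM in BxPC3 and 77.6 ± 6.48 TPM in PANC-1.

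The families of the members did not all share their direction. Counts here are read against all tested genes, of which 36.1% fell and 37.3% rose in BxPC3. In PANC-1, 24% fell and 20.7% rose. Of 16 tested protein disulfide isomerases other than AGR2 and AGR3, 11 rose and 1 fell in BxPC3, with a median of 0.27, while AGR2 fell. In PANC-1, 6 of 16 fell and none rose at an adjusted p under 0.05. PDIA4, a chaperone of the endoplasmic reticulum, averaged 215.5 ± 9.87 FPKM in treated and 164 ± 5.17 FPKM in untreated BxPC3, and 111 ± 2.47 FPKM in treated and 161 ± 5.53 FPKM in untreated PANC-1. Of 18 other tetraspanins tested in BxPC3, 14 fell and 2 rose, with a median of -0.47, while TSPAN8 was not called. TSPAN1 averaged 88.6 ± 5.89 FPKM in treated and 338 ± 14.8 FPKM in untreated BxPC3 (log2 change -1.92). Galectins were mixed: LGALS1 averaged 124 ± 10.1 FPKM in treated and 27.1 ± 3.72 FPKM in untreated BxPC3 and LGALS3 64.1 ± 3.36 and 119.5 ± 5.22 FPKM in the same order. Of 9 other CEACAM genes, 2 were tested in BxPC3. CEACAM7 fell to 19.6 ± 0.719 FPKM in treated cells, against 28.4 ± 0.883 FPKM in untreated ones (log2 change -0.51, adjusted p = 1.11e-06), and CEACAM19, which passed the filter only through treated libraries, was called higher. Of 6 tested mucins and binding partners of the members, 4 fell and 1 rose in BxPC3. They included MUC1, a membrane mucin, at 25.7 ± 0.602 FPKM in treated and 44.4 ± 1.13 FPKM in untreated cells. Only genes above the filter are counted in these lists.

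**Figure D4:**
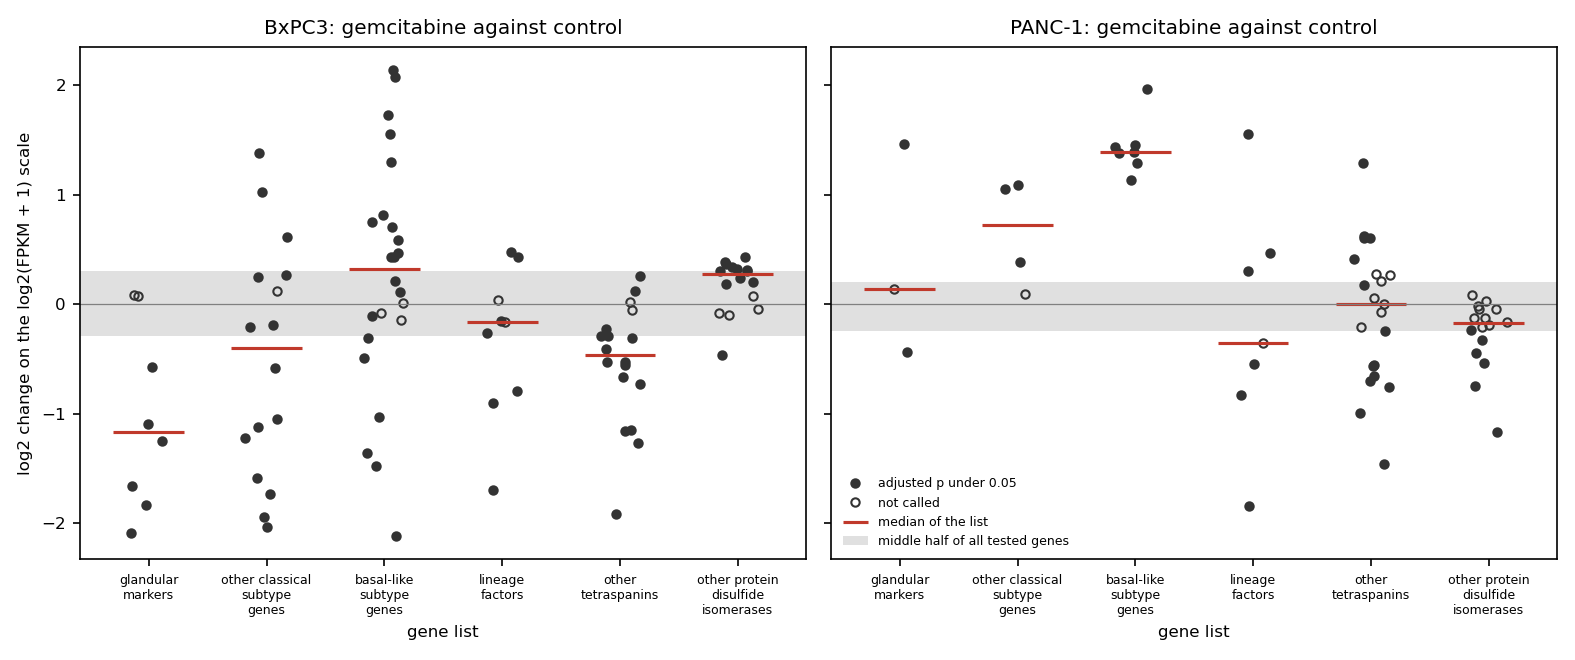
Log2 change with gemcitabine on the log2(FPKM + 1) scale for every tested gene of the members' list and 5 related lists, in BxPC3 (left panel) and PANC-1 (right panel); points are genes, red lines are list medians and the grey band holds the central range of all tested genes. The members' median is -1.17 in BxPC3 and 0.14 in PANC-1, and the other protein disulfide isomerases lie mostly above 0 in BxPC3.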

How the data were processed

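RNA from the 16 libraries was poly-A enriched, per the labels' protocols. Each line has 1 deposited table, which holds FPKM per gene and library and, as the other unit, gene length in bases, per the file headers. The tools named are CASAVA and HISAT2, with no version, per the submitters' processing notes. Which program counted the reads, and with what strand setting, is not given in the sources used here. Although these notes list the mouse build mm10, all 58735 identifiers are human and match GENCODE 29 in start and end, so coordinates are GRCh38. FPKM times length gave whole reads for 100% of values, within 0.02 reads. Groups and replicate numbers came from the sample titles.

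Within a line, treated and untreated libraries were compared with limma 3.58.1 (R 4.3.3, trend and robust, 2-sided) on log2(FPKM + 1). Genes needed 1 FPKM in at least 4 libraries. Adjustment was by Benjamini-Hochberg over all tested genes, at 0.05. This scale understates changes of low genes. The interaction of line and treatment was fitted over 16 libraries. Untreated lines were compared on log2(TPM + 1). Members not tested are given by their reads, with intervals and floors that cover counting error only. Other settings tried were no filter, a pseudocount of 0.1, scaling by median ratio or to TPM (FPKM as deposited for untreated lines), plain limma, restriction to protein-coding genes, a replicate block, limma-voom on recovered reads, and leaving out each library. Voom over genes with at least 10 reads was added after the data were seen.

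The text names all 10 members, up to 4 genes of smallest p from each other list per comparison, the nearest protein-coding gene on each side of members grouped within 200000 bases, and SMAD4; not every gene so chosen is mentioned. The members and lists were chosen with earlier results of these data known. The procedure was tested on simulated data. No 2 libraries of a group agreed within counting noise (lowest chi-square per degree of freedom 2.07). Python 3.11.15, pandas 2.3.3, scipy 1.17.1 and matplotlib 3.10.9 were used.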

Additional observations from a re-analysis of the deposited data

Results flagged for a closer look

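The interaction over all 16 libraries passed the threshold for 7 members. The BxPC3 change minus the PANC-1 change was -2.22 for AGR2, -2.04 for CEACAM6, -1.91 for TFF1, -1.87 for TFF2, -1.34 for CEACAM5, -0.66 for TFF3 and -0.29 for CEACAM1, in log2 units. CEACAM1, CEACAM5, TFF1 and TFF2 entered through BxPC3 alone, since they were under 1 FPKM in PANC-1, where TFF1 and TFF2 had 7 to 21 reads per group.

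A sample far from the others was seen in 4 of 38 groups of 4 libraries checked, by a gap past Dixon's critical value, which chance gives in about 1 in 20 groups. They were AGR2 at 151 FPKM in untreated BxPC3 replicate 2, LGALS4 at 0.354 FPKM in untreated BxPC3 replicate 4, TFF1 at 0.783 FPKM in treated PANC-1 replicate 3 and AGR3 at 0.0397 FPKM in treated PANC-1 replicate 1. The last of these is a single read.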

How the results depend on the processing

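Each member called by the main test kept its direction and its side of the threshold under all alternatives run. Sizes moved where 1 group was low, since a smaller pseudocount or the reads compress low levels less. For the untreated lines, FPKM as deposited, with smaller values than TPM, compresses them more. Between untreated lines, CEACAM5 ranged from 7.93 to 15.58, TFF2 from 4.01 to 7.46, CEACAM1 from 4.04 to 7.15, TFF1 from 4.13 to 7.21, CEACAM6 from 8.63 to 11.65 and LGALS4 from 0.36 to 1.81. The difference of effects ranged from -4.62 to -1.32 for CEACAM5, -4.24 to -1.98 for CEACAM6 and -1.58 to -0.25 for CEACAM1. CEACAM6 in PANC-1 ranged from 1.43 to 3.65 and TFF3 in BxPC3 from -1.70 to -0.99. Of the members not called, AGR2 in PANC-1 passed at 0.20 (adjusted p = 0.00180) without treated replicate 1, a library whose removal also gave 4102 genes higher and 4626 lower in PANC-1, against 2595 and 3007 with all libraries. Leaving out each library in turn gave 2189 to 4102 genes higher and 2452 to 4626 lower in PANC-1, and 1 to 2 members higher. With no filter, 3 members were called higher in PANC-1 instead of 1. Voom over genes with at least 10 reads also gave 3, with 4119 genes higher, and gave 9254 genes higher in untreated BxPC3 against untreated PANC-1, where the main count was 4881. For these untreated lines the scaling set the balance of calls: 32.9% of calls were higher in BxPC3 on the TPM scale, 40.3% on FPKM as deposited and 49.8% with median-ratio scaling, and the median over all genes was -0.49, -0.19 and -0.01.

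Replicate numbers do not come from a stated pairing, and same-numbered libraries did not deviate together, with correlations of -0.33 to 0.18 in BxPC3 and -0.38 to 0.19 in PANC-1. A replicate block gave 4347 genes higher and 4206 lower in BxPC3, 2175 and 2464 in PANC-1, and changed no member's call; 1 of 8 pairs, PANC-1 replicate 4, correlated best with its own number. Depth limits AGR3 in both lines and CEACAM5, TFF1, TFF2 and LGALS4 in PANC-1 to 56 reads per group or fewer.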

Other observations

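Genes that flank the members were also read. In BxPC3, 36.1% of all tested genes fell and 37.3% rose. AHR, the aryl hydrocarbon receptor, which lies beyond AGR3 on chromosome 7, averaged 12.9 FPKM in treated and 32.8 FPKM in untreated BxPC3 (log2 change -1.29), and 12.1 FPKM in treated and 6.94 FPKM in untreated PANC-1 (log2 change 0.68, adjusted p = 0.0208). The PANC-1 groups overlapped, with SDs of 3.58 FPKM in treated and 0.362 FPKM in untreated libraries, and the PANC-1 call was lost with no filter (adjusted p = 0.0585). The difference between lines was -1.97 ± 0.21 (adjusted p = 1.15e-06). On the other side of AGR2, the tetraspanin TSPAN13 averaged 44.7 FPKM in treated and 55.1 FPKM in untreated BxPC3 (log2 change -0.29), and 64.9 FPKM in treated and 53.0 FPKM in untreated PANC-1, where it was not called. CXCL17, a mucosal chemokine beside CEACAM1, averaged 20.8 FPKM in treated and 76.6 FPKM in untreated BxPC3 (log2 change -1.84), although CEACAM1 was not called there. TMPRSS3, a membrane serine protease beside the trefoil genes, averaged 0.889 FPKM in treated and 2.10 FPKM in untreated BxPC3 (log2 change -0.71). ABCG1, on their other side, averaged 0.437 FPKM in treated and 0.289 FPKM in untreated BxPC3, without overlap. It was too low to test. Beside TSPAN8, ZFC3H1 was not called in either line. PTPRR, on the other side of TSPAN8, fell in BxPC3 (log2 change -0.27). In PANC-1 PTPRR was below the filter, with 211 reads in treated and 18 in untreated libraries. ECH1, a peroxisomal and mitochondrial enzyme of fatty acid breakdown beside LGALS4, fell in both lines, to 43.5 FPKM in treated BxPC3, against 84.3 FPKM untreated, and to 51.4 FPKM in treated PANC-1, against 84.9 FPKM untreated.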
